A study of Mus musculus with 2 samples.

Results

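Dividing cells with little RNA of 5 neuroblast genes were examined in single-cell RNA-seq data from the adult mouse subventricular zone. This is the stem cell niche along the lateral ventricles. A cell was taken as a mitotic progenitor when 8 division genes (Mki67, Top2a, Cdk1, Nusap1, Ube2c, Cenpf, Hmmr and Ccnb1) summed to at least 10 UMIs per 10000 of its UMIs. It also had to have fewer than 10 per 10000 from 5 neuroblast genes (Dcx, Dlx6os1, Sp8, Gad2 and Stmn2) and fewer than 15 per 10000 from 5 astrocyte genes (Slc1a2, Aldoc, Ntsr2, Cldn10 and Gja1). At most 10% of its UMIs could be mitochondrial, and the stress and immune genes Atf3, Cxcl1, Cxcl10 and Irf8 together had to stay under 3 UMIs. A UMI is a molecular tag that counts each captured transcript once. The rule found 179 cells in library 1 and 409 in library 2, or 588 of the 3937 barcodes of the series. These were 9.73% of the 1840 cells of library 1 that passed the mitochondrial limit (95% Clopper-Pearson interval 8.41 to 11.2%) and 19.7% of the 2075 of library 2 (18.0 to 21.5%). All intervals here cover counting error only.

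The cells came from male C57BL/6 mice of 2 months (tissue of 4 animals pooled) and 22 months (tissue of 8 animals pooled). They were sorted as GLAST-positive, GLAST being the glutamate transporter of astrocytes and radial glia-like stem cells, and as negative for O4, Ter119 and CD45, surface antigens of the oligodendrocyte, erythroid and leukocyte lineages. From each age 8000 sort events entered the 10x Chromium droplet workflow, and 1 library was made per age, so neither animals nor libraries were replicated. The barcode ending that separates library 1 from library 2 is tied to an age by no label, so the libraries are named by number and no comparison of ages was made.

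The libraries held 10440891 and 13330251 UMIs. Throughout, paired values are those of library 1 first and library 2 second. Levels are UMIs summed over the cells of a group and given per 1000000 UMIs of that group (CPM), and mitotic progenitors contributed 1891969 and 4247857 UMIs. They were deeper than the comparison cells defined next, with a median of 11014 and 10690 UMIs per cell. The comparison cells, which passed the same neuroblast, astrocyte and stress limits but stayed under 10 on the mitotic sum, numbered 338 and 469 and had medians of 7414.5 and 7447 UMIs. Between the libraries 4 barcode sequences were shared, none of them a mitotic progenitor in either, and the doublet caller marked 15 and 11 barcodes, none of them a mitotic progenitor.

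In this niche slowly dividing, astrocyte-like stem cells give rise to activated stem cells and transit amplifying progenitors, which divide several times before they become neuroblasts that migrate to the olfactory bulb. A dividing cell duplicates its DNA in S phase with licensing factors, polymerases and newly made histones, and in G2 and M phase it builds a spindle with kinases, kinesins and kinetochore proteins. Genes of S phase are classically driven by E2F factors, and those of G2 and M phase by MuvB complexes with B-MYB and FOXM1.

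The cells were chosen by their measured UMIs of the rule genes, so those values are given as a description. The mitotic sum had a median of 21.2 and 23.5 per 10000 UMIs, with ranges of 10.2 to 102 and 10.0 to 92.3. In the comparison cells its median was 1.31 and 2.56. Mki67, which codes for a perichromosomal protein of cycling cells (ENSMUSG00000031004, chr7:135689784-135716361, GRCm38), was at 303 and 277 CPM, against 37.2 and 39.2 CPM in the comparison cells. Top2a, the topoisomerase that untangles replicated DNA (ENSMUSG00000020914, chr11:98992943-99024189), was at 743 and 886 CPM against 71.9 and 102. Cdk1, the kinase that drives entry into mitosis (ENSMUSG00000019942, chr10:69335146-69352938), was at 138 and 161 CPM against 26.7 and 28. The rule needs only the sum, so single markers could still be missing from a cell.

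A UMI of Mki67 was seen in 88.3% and 87.3% of the mitotic progenitors, of Top2a in 92.2% and 97.1%, and of Cdk1 in 70.9% and 68.5%. These shares follow from the rule, which sums over these genes, and are no check of the label. Comparison cells with oligodendrocyte markers, called oligodendrocyte-marker cells below (106 and 15 cells, median 4237.5 and 5081 UMIs), had a Mki67 UMI in 4.72% and 0% of cells. As comparison cells they had to stay under the limit on the mitotic sum, which includes Mki67. This share is therefore no measure of free Mki67 RNA. The 0 of 15 cells of library 2 is too few to set a level. Thinned to 2000 UMIs per cell, the Mki67 shares were 41.5% and 37.3% in mitotic progenitors and 8.48% and 6.44% in comparison cells. The thinning left out 3 and 2 mitotic progenitors with fewer UMIs than that.

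The other element of the label, the state before neuroblast commitment, also follows from the rule. The neuroblast sum had a median of 0.885 and 1.07 per 10000, against 18.5 and 19.5 in the 64 and 103 dividing cells that passed the mitotic threshold but had a neuroblast sum of 10 or more. Dcx, a microtubule protein of migrating neuroblasts, was at 73.5 and 77.7 CPM in the mitotic progenitors and at 465 and 466 CPM in those dividing neuroblast-gated cells. Stmn2, a tubulin-binding growth cone protein, was at 22.7 and 31.1 CPM against 564 and 705 CPM. Of all cells at or above the mitotic threshold, 66.5% (60.6 to 72.2%) of 269 and 74.1% (70.2 to 77.7%) of 552 were mitotic progenitors. The plot of both sums per cell shows that neither threshold falls in a gap.

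**Figure D1:**
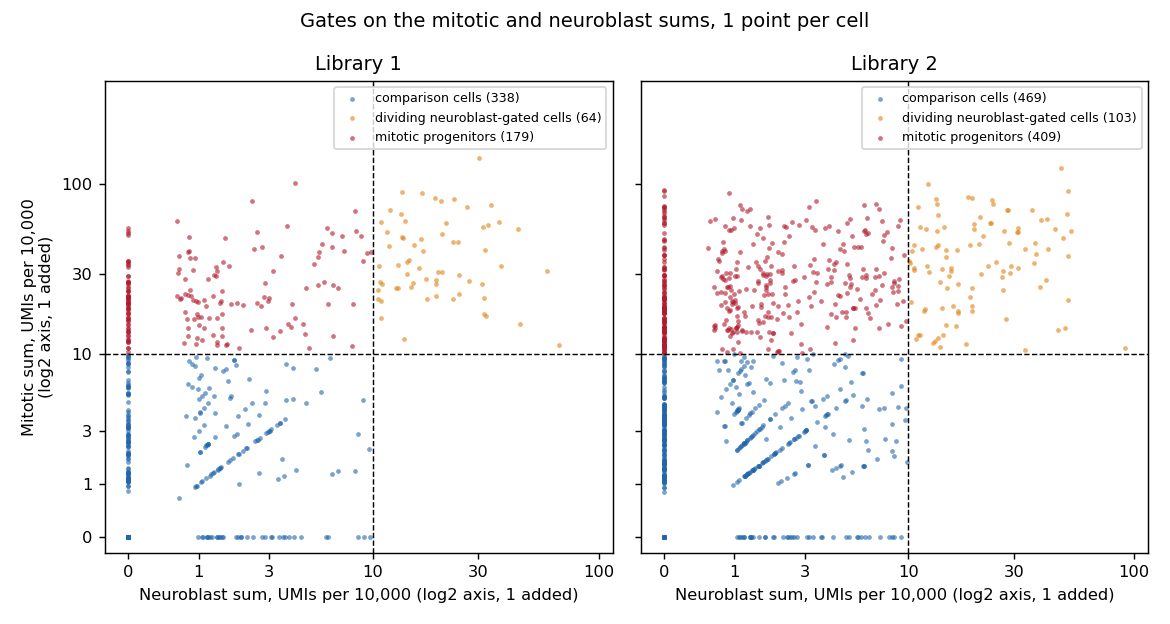
Sum of the 8 mitotic genes against the sum of the 5 neuroblast genes, in UMIs per 10000 on log2 axes with 1 added, 1 point per cell, for library 1 (left) and library 2 (right), with the thresholds of 10 as dashed lines. The 179 and 409 mitotic progenitors run down to the threshold and the comparison cells up to it, and dividing cells lie on both sides of the neuroblast threshold.

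Cells near the thresholds were graded rather than separate. Just under the mitotic threshold, at sums of 8 to 10, there were 22 and 36 cells, in which Prc1, a spindle midzone protein outside the rule, was at 127 and 83.8 CPM. Just above it, at 10 to 12, there were 15 and 34 cells with Prc1 at 140 and 116 CPM. Just under the neuroblast threshold there were 7 and 17 mitotic progenitors, with the neuronal tubulin Tubb3 at 357 and 367 CPM. Just above it, 10 and 14 dividing cells had Tubb3 at 574 and 457 CPM. Sox11, a transcription factor of immature neurons, was not lower inside the limit, at 3233 and 3094 CPM just under it and 2157 and 2859 CPM just above it. Only 5 and 6 mitotic progenitors had an astrocyte sum of 13 to 15, and 1 and 1 otherwise matching cell lay at 15 to 17.

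Oligodendrocyte lineage markers were far higher in the comparison cells than in the mitotic progenitors. Summed over 10 oligodendrocyte genes the level was 428 and 69.4 CPM in mitotic progenitors and 13368 and 1232 CPM in the comparison cells. Summed markers of oligodendrocyte precursors stood at 43.3 and 33.4 CPM against 539 and 323, with Gpr17, Neu4, Lhfpl3, Bcas1 and Enpp6 at 0 in library 1 and Enpp6 at 0 in library 2. Ependymal markers summed to 14.3 and 40 CPM against 53.1 and 219, endothelial markers to 11.6 and 17.4 CPM against 25.9 and 106, and pericyte and fibroblast markers to 2.64 and 5.41 CPM against 4.6 and 44.7. Microglial markers were low in both groups, at 5.29 and 9.18 CPM in mitotic progenitors and 4.6 and 6.63 CPM in comparison cells. Mature neuron markers stood at 76.1 and 57.4 CPM against 89.8 and 76.7. Leaving out cells with 10 or more per 10000 of any such marker set removed 5 and 2 mitotic progenitors but 117 and 51 comparison cells. The remaining 221 and 418 comparison cells had oligodendrocyte genes at 388 and 82.4 CPM, and they are called the cleaned comparison cells below. Ratios against the cleaned comparison cells, with their calls and list medians, also leave out these 5 and 2 mitotic progenitors. CPM values, shares of cells and sums per cell are those of all mitotic progenitors. Slc1a3, the gene of the sorted GLAST protein, was present in the mitotic progenitors at 346 and 378 CPM, against 460 and 556 CPM in the cleaned comparison cells.

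Promoter letters tied to the timing of division genes were looked for in the genes that led in these cells. Shown are the 250 bases before the RefSeq start (GRCm38.p6) of the 3 marker genes Mki67, Top2a and Cdk1, of Ccnf and Kif11, which the rule did not use, and of the replication gene Mcm6 as a contrast. Each is written 5′ to 3′ in the direction of its gene. Capitals mark, on either strand, TTTGAA (the core of the cell cycle genes homology region, which MuvB complexes bind), CCAAT (the NF-Y box), and TTTCCCGC or TTTGGCGC (forms of the E2F site). The genes and motifs were chosen after their values were seen, and the 5 division promoters were picked because they carry TTTGAA. Other division genes did not carry it in this window, among them the leading genes Gas2l3 and Troap and the kinase genes Plk1 and Aurka.
Mki67: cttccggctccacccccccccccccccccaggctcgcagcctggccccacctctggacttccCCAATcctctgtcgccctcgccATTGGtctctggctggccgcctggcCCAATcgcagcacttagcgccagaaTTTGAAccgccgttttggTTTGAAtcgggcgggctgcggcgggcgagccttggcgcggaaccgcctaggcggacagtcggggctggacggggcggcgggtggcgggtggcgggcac
Top2a: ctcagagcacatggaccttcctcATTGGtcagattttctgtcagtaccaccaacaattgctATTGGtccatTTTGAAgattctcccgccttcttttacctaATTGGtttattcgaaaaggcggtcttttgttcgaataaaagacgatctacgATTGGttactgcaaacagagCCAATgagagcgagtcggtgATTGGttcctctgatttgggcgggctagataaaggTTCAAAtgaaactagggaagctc
Cdk1: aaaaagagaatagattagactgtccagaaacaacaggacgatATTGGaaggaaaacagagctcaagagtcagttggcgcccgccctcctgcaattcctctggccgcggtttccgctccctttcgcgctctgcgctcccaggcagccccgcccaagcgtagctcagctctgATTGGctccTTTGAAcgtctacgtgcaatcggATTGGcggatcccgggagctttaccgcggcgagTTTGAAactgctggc
Ccnf: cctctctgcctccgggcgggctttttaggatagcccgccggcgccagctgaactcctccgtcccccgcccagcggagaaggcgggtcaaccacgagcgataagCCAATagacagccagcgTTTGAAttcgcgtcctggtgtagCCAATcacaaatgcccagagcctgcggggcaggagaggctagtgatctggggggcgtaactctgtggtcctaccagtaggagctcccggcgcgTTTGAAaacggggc
Kif11: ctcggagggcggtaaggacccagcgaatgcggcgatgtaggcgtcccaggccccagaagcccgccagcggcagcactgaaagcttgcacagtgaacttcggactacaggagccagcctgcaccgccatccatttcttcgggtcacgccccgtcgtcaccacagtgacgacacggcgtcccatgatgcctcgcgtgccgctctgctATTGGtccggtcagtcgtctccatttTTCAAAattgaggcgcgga
Mcm6: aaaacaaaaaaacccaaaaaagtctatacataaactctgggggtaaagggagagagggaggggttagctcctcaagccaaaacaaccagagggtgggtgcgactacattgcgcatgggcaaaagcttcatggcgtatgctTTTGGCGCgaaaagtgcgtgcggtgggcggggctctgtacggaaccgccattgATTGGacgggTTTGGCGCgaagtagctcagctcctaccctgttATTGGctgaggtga
The regions were chr7:135716380-135716629 (minus strand) for Mki67, chr11:99024190-99024439 (minus strand) for Top2a, chr10:69352913-69353162 (minus strand) for Cdk1, chr17:24251410-24251659 (minus strand) for Ccnf, chr19:37376132-37376381 (plus strand) for Kif11 and chr1:128359706-128359955 (minus strand) for Mcm6.

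Counted back from the start, with -1 as the last base shown, Cdk1 carried TTTGAA at -71 to -66 and again at -15 to -10. Ccnf carried it at -130 to -125 and at -14 to -9, Top2a at -179 to -174 and, on the other strand, at -23 to -18, and Kif11 on the other strand at -19 to -14. In Mki67 both copies lay farther out, at -116 to -111 and -98 to -93. Mcm6 had no TTTGAA in the window and carried TTTGGCGC at -110 to -103 and -47 to -40. Of the other replication genes looked up, Mcm5 carried TTTGGCGC on the other strand at -149 to -142. Mcm2, Pcna and Rrm2 carried neither E2F form, and Mcm2 carried TTTGAA at -70 to -65. Mcm6 thus does not stand for replication genes in general. A match is a description of letters, not of a bound site.

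The same letters were counted over gene sets. Of the 72 genes outside the rule that were at least 4-fold higher in mitotic progenitors than in comparison cells in both libraries, 48 were found in the promoter table. TTTGAA lay within 100 bases of the start in 16 of these 48 (33.3%), against 3.89% of the 6063 matched genes of the 7799 measured and 6.76% of all 27025 genes in the table. CCAAT lay there in 33 (68.8%), against 27.1% and 21.6%. Genes at least 1.5-fold lower were near the background, with TTTGAA in 4.06% and CCAAT in 21.3% of 320 matched genes. TTTCCCGC or TTTGGCGC was found within 100 bases in 1 of 13 matched genes of replication licensing (7.69%), 0 of 24 of the replication fork and 2 of 10 mitotic kinesins, against 1.55% of measured genes. Within 250 bases these counts were 4 of 13 (30.8%), 1 of 24 (4.17%) and 2 of 10, against 3.50% of measured genes and 1.51% of all genes in the table. They rest on few genes.

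Against the comparison cells, mitotic progenitors had more RNA of most genes of the mitotic machinery. A gene was measured when both groups together had at least 50 UMIs in each library. A gene was called higher or lower when it differed at least 1.5-fold the same way in both libraries. Of 7799 measured genes outside the rule, 429 (5.5%) were called higher and 419 (5.37%) lower. With the cleaned cells these were 391 (5.41%) and 219 (3.03%) of 7228. Because the rule set the groups apart by division genes, folds, counts and medians of this comparison are a description and no test was made. The median log2 ratio over all measured genes was 0.02 and -0.02, and 0.03 and 0.01 with the cleaned cells.

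The genes outside the rule with the highest ratios were of the spindle, of chromosome segregation and of histones. Gas2l3, a linker of actin and microtubules in cytokinesis (ENSMUSG00000074802, chr10:89408823-89443967), was at 51.8 and 70.2 CPM in mitotic progenitors. It had 4 UMIs (1.67 CPM) in the comparison cells of library 1 and 6.34 CPM in those of library 2, ratios of 31.0 (95% interval 11.7 to 116) and 11.1 (7.17 to 17.9). Prc1 was at 280 and 305 CPM against 25.1 and 30, which is 11.2-fold (8.54 to 14.8) and 10.2-fold (8.32 to 12.5). It was seen in 82.1% and 83.6% of mitotic progenitors and in 13% and 17.1% of comparison cells, and in 2.83% and 6.67% of the oligodendrocyte-marker cells. Thinned to equal depth, the Prc1 shares were 38.6% and 42.0% against 4.85% and 5.15%. Kif11, the kinesin that pushes spindle poles apart (ENSMUSG00000012443, chr19:37376403-37421859), was at 125 and 111 CPM against 10.9 and 13.6, or 11.5-fold (7.64 to 17.9) and 8.21-fold (6.08 to 11.3).

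Ccnf, the cyclin of an SCF ubiquitin ligase, followed the same pattern at a low level, with 27.5 and 25.9 CPM in mitotic progenitors. The comparison cells had 3 UMIs (1.25 CPM) in library 1 and 2.60 CPM in library 2, ratios of 21.9 (7.10 to 110) and 9.98 (5.07 to 22.4). Aurkb, the kinase of the chromosomal passenger complex, was at 128 and 125 CPM against 11.7 and 15.6. Aspm, a spindle pole protein, Kif20a, a kinesin of the cell midzone, Troap, a spindle protein, and Spc25, of the kinetochore's NDC80 complex, were also among the 12 highest, with the histone genes Hist1h2ak and Hist1h2ap, at folds from 7.78 to 12.2. Hist1h2ap alone reached 2610 and 2015 CPM against 214 and 226. Histone genes of these clusters are near-identical copies among which reads can be split, so the value of a single copy is uncertain. The same 12 genes led with the cleaned comparison cells.

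The machinery was next described by gene list, with the cleaned comparison cells, since these hold few cells of other types. Median log2 ratios over the measured genes of a list stand beside the all-gene median of 0.03 and 0.01, and the share of all genes called higher was 5.41%. All 13 measured mitotic kinases were called higher (median 2.14 and 2.41). Among them Plk1, which drives spindle assembly, was at 40.2 and 45.0 CPM against 3.25 and 7.78, and Aurka, the centrosomal kinase, at 67.7 and 97.5 CPM against 5.95 and 13.7. All 11 measured mitotic kinesins were higher (2.90 and 2.71), as were all 15 genes of the chromosomal passenger complex and cytokinesis (2.59 and 2.53) and all 22 of centromere and kinetochore (1.58 and 1.37). Birc5, the survivin subunit of the passenger complex, was at 397 and 446 CPM against 66.0 and 94.6.

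Other lists of the division machinery were higher in part. Of the spindle and centrosome genes 19 of 22 were called higher (1.44 and 1.28), of condensin and cohesin 12 of 16 (1.43 and 1.30) and of the spindle checkpoint 11 of 14 (1.33 and 1.63). The checkpoint exception Mad2l2, which is better known for translesion DNA synthesis, had log2 ratios of -0.03 and -0.25. Among cyclins, CDKs and CDC25 phosphatases of G2 and M phase 7 of 9 were higher (1.26 and 1.78), led by Ccna2, cyclin A2, at 288 and 296 CPM against 54.7 and 47.0. The anaphase promoting complex is regulated mostly through its activators. In the list of this complex and its targets 5 of 13 genes were called higher (0.53 and 0.46). The activator Cdc20 was at 89.9 and 152 CPM against 23.3 and 33.6.

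**Figure D2:**
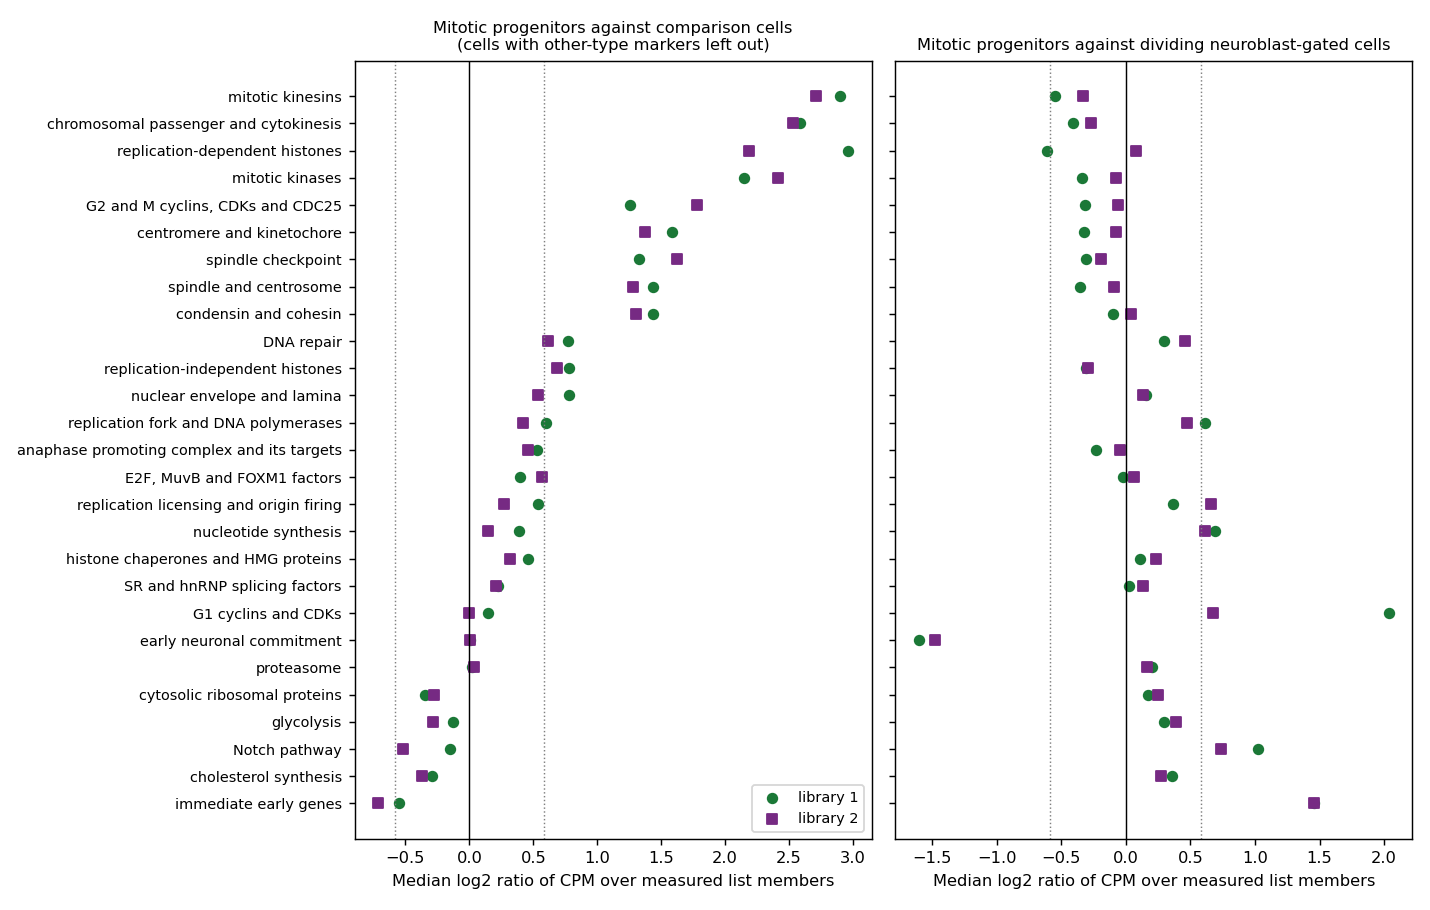
Median log2 ratio of CPM over the measured genes of each list (x axis) in mitotic progenitors against the cleaned comparison cells (left) and against dividing neuroblast-gated cells (right), circles library 1 and squares library 2, dotted lines at 1.5-fold. Kinesins lie at 2.90 and 2.71 on the left and at -0.55 and -0.33 on the right, while early neuronal commitment lies at 0.00 and 0.00 on the left and at -1.60 and -1.48 on the right.

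Among the replication lists only the histones had a median as high as the mitotic lists. The replication-dependent histones, made in S phase to package new DNA and mostly without the poly(A) tail that a 3′ kit captures, were higher in 6 of 8 measured genes (2.96 and 2.18), but Hist1h2bc was lower, at 111 and 112 CPM against 286 and 268. This median was not stable: against all comparison cells it was 3.17 and 2.26, but 1.30 and 0.68 with every cell thinned to 2000 UMIs, and 1.34 in library 1 with no minimum beyond 1 UMI. Of the licensing and origin firing genes only 3 of 18 were called higher (0.54 and 0.27). These were Dbf4 and Cdc7, the 2 parts of the kinase that fires origins, and Mcm10, with Dbf4 at 164 and 160 CPM against 48.2 and 44.2. The helicase subunit Mcm5 was at 98.3 and 96.0 CPM against 102 and 107, a ratio of 0.974 (0.791 to 1.20) and 0.890 (0.769 to 1.03).

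At the replication fork 7 of 30 genes were called higher (0.60 and 0.42). The PCNA-associated factor gene 2810417H13Rik was at 1940 and 1970 CPM against 730 and 778, whereas Pcna, the sliding clamp, was at 421 and 382 CPM against 299 and 302. In nucleotide synthesis 6 of 24 were higher (0.39 and 0.15), with the ribonucleotide reductase subunit Rrm2 at 506 and 471 CPM against 179 and 216. The comparison cells thus held replication RNA of their own. Summed per cell over the licensing and fork lists, the median was 70.6 and 74.6 UMIs per 10000 in mitotic progenitors and 37.6 and 39.7 in the cleaned comparison cells. A sum of 12 mitotic genes outside the rule, by contrast, had medians of 12.8 and 13.4 against 1.24 and 1.64.

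Of 19 genes of the E2F, MuvB and FOXM1 group, which regulate the cycle, 8 were called higher and 1 lower (0.40 and 0.57). Foxm1, the activator of G2 and M genes, was at 55.5 and 53.4 CPM against 10.8 and 16.2, and the repressors E2f7 and E2f8 were 3.63- and 4.29-fold and 5.37- and 5.03-fold higher. E2f1, an activator of S phase entry, was at 120 and 116 CPM against 125 and 128. Myc was called lower, at log2 ratios of -0.87 and -0.66. Among CDK inhibitors and exit genes Cdkn2c, which blocks CDK4 and CDK6, was at 312 and 281 CPM against 129 and 91.8, and Ccng2, cyclin G2, linked to arrest, at 100 and 134 CPM against 26.0 and 40.4. The antiproliferative gene Btg2 went the other way, at log2 ratios of -1.27 and -1.56.

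Of 7 G1 cyclins and CDKs 1 was called higher and 1 lower (0.14 and -0.00). Ccnd1, cyclin D1 (ENSMUSG00000070348, chr7:144929931-144939925), was at 70.8 and 38.4 CPM in mitotic progenitors and 128 and 121 CPM in all comparison cells, a ratio of 0.554 and 0.316. Ccnd2, cyclin D2, was at 3182 and 3270 CPM against 3128 and 3284 in the cleaned cells, a ratio of 1.03 (0.991 to 1.07) and 1.00 (0.975 to 1.03). Ccne1, cyclin E1, was the one called higher, at log2 ratios of 1.06 and 0.59.

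The nuclear envelope and lamina, which are taken apart and rebuilt in mitosis, had 9 of 19 genes called higher and 18 of 19 higher in both libraries (0.78 and 0.54), beside 391 called and 2768 higher in both of all 7228. Of replication-independent histones 5 of 9 were called higher (0.78 and 0.68), and of histone chaperones and HMG proteins 3 of 23 were called higher and 1 lower (0.46 and 0.32). H2afx, the histone variant marked at DNA breaks, was at 647 and 759 CPM against 156 and 174. Hmgb2, a DNA-bending protein, was at 5081 and 5642 CPM against 2082 and 2465, while the related Hmga1 was lower at -1.13 and -0.89. The lamin gene Lmnb1 was at 401 and 385 CPM against 205 and 195, and the lamin B receptor Lbr at 90.4 and 89.9 against 27.1 and 37.3. Lmna, the A-type lamin, had log2 ratios of -1.61 and -0.51. In DNA repair 7 of 17 genes were called higher and 1 lower: Neil3, a glycosylase, was at 149 and 159 CPM against 23.3 and 37.3, and Ung, which removes uracil from DNA, at 37.5 and 51.3 against 134 and 136.

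Among all comparison cells, the 12 genes with the lowest ratios in mitotic progenitors were oligodendrocyte genes, led by Mal. Cldn11, the claudin of myelin tight junctions, was at 34.4 and 3.06 CPM against 905 and 72.1. With the cleaned comparison cells its log2 ratio was 0.05 and 0.13 and that of Mal 0.12 and -0.13. Both genes were called lower only while cells with markers of other types stayed in the comparison. Both are among the oligodendrocyte genes by which such cells were left out, so this change follows from the cleaning.

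With the cleaned cells, the 12 lowest included D030055H07Rik, Gm11549, Rap1gap, Ddit4, Prss23, Alkbh2, Arc, Ung, Wnt7b and Kdm7a. Ddit4, an inhibitor of mTORC1 that is induced by stress, was at 19.6 and 35.5 CPM against 64.9 and 111. Arc, an immediate early gene, was at 33.3 and 25.9 CPM against 114 and 69.1. Wnt7b, a secreted ligand, was at 22.2 and 18.8 CPM against 55.7 and 50.4. Of 18 immediate early genes 9 were called lower and 0 higher (-0.55 and -0.71), where 3.03% of all genes were called lower, although Egr1 was at 0.19 and 0.11. Fos was at 789 and 660 CPM against 1223 and 1106. How far handling during dissociation, which induces such genes, differed between the groups was not tested.

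In the Notch pathway, which holds neural stem cells undifferentiated, 3 of 14 genes were called lower and none higher (-0.15 and -0.52), beside 3.03% of all genes called lower: the ligands Dll1 and Dll3 and the glycosyltransferase Mfng. Lower in both libraries at any size were 11 of 14 Notch genes, against 2563 of all 7228. With all comparison cells 1 of 15 Notch genes was called lower, at medians of 0.07 and -0.42. Of BMP and Id genes 2 of 9 were called lower (-0.27 and -0.16), of Wnt genes 1 of 10 (-0.27 and -0.26) and of Hedgehog genes 0 of 5 (-0.29 and -0.13). All 81 cytosolic ribosomal protein genes were below 0 in both libraries, but none reached 1.5-fold (-0.35 and -0.28). Glycolysis stood at -0.13 and -0.29 and cholesterol synthesis at -0.29 and -0.37.

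Of genes that mark activated stem cells and transit amplifying cells, 4 of 22 were called higher and 4 lower (-0.03 and -0.14), both above the shares of all genes called, 5.41% and 3.03%, so members differed in both directions around a median near 0. Egfr, the EGF receptor of activated stem cells, was at 140 and 89.5 CPM against 214 and 130, a ratio of 0.650 (0.553 to 0.762) and 0.684 (0.593 to 0.788). Dlx2, a homeobox factor of interneuron lineages, was at 561 and 561 CPM against 326 and 301, and Dlx1 at 429 and 415 against 247 and 245. In 49.7% and 37.9% of mitotic progenitors Egfr and Dlx2 were both seen.

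Early neuronal commitment genes outside the neuroblast sum had medians of 0.00 and 0.00. Of them 5 of 19 were called higher and Sox4 was called lower, beside 5.41% and 3.03% of all genes. The 5 were Dlx5, Dlx6, Sp9, Nrxn3 and Celf4. Dlx5 was at 64.0 and 57.0 CPM against 15.7 and 28.3, and Sp9, a zinc finger factor of interneurons, at 274 and 161 CPM against 88.2 and 62.2. Both groups had passed the same limit on the neuroblast sum. Sox4 was at 1252 and 860 CPM against 2101 and 1373.

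The mitotic progenitors were not uniform, and replication genes were lowest where segregation genes were highest along the mitotic sum. They were divided at sums of 20 and 40 into 72 and 161 cells (10 to 20), 81 and 156 cells (20 to 40) and 26 and 92 cells (40 or more). The bins come from the rule, so these values are a description. Pcna was at 510 and 494 CPM in the lowest bin, 423 and 434 CPM in the middle and 166 and 133 CPM in the highest. Mcm6 went from 194 and 209 over 153 and 145 to 71.8 and 51.4 CPM. Hist1h2ap, at 2512 and 2132, then 2855 and 2539 CPM, stood at 2064 and 1027 CPM in the highest bin.

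Genes of late mitosis ran the other way. Cdc20, which starts anaphase, was at 76.9 and 80.7 CPM in the lowest bin, 56.4 and 79.5 CPM in the middle and 238 and 370 CPM in the highest. Cenpa, the centromere histone, was at 229 and 223, then 222 and 273, then 722 and 1057 CPM. For both genes the lower bins were close and the highest stood apart. Kif11 was graded instead, at 95.8 and 71.7, then 126 and 109, then 200 and 174 CPM. Plk1 was at 24.3 and 19.2 CPM in the lowest bin and 106 and 99.1 CPM in the highest.

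Between the highest and the lowest bin 3222 genes were measured, of which 120 (3.72%) were called higher and 119 (3.69%) lower in the highest, with a median of -0.05 and -0.06. All 7 measured mitotic kinesins were called higher (1.37 and 1.51), as were 8 of 11 passenger and cytokinesis genes (0.91 and 1.09) and 8 of 10 spindle and centrosome genes (0.94 and 1.12). Called lower were 7 of 13 licensing genes (-0.87 and -1.15), 13 of 24 fork and polymerase genes (-0.82 and -0.87) and 6 of 17 nucleotide synthesis genes (-0.57 and -0.82). Glycolysis was lower in both libraries in 9 of 10 genes (-0.55 and -0.57) and cholesterol synthesis in 7 of 10 (-0.45 and -0.63), against 1299 of all 3222. Per cell, the sum of replication genes had medians of 75.6 and 87.9 per 10000 in the lowest bin, 76.8 and 78.8 in the middle and 49.0 and 44.6 in the highest.

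**Figure D3:**
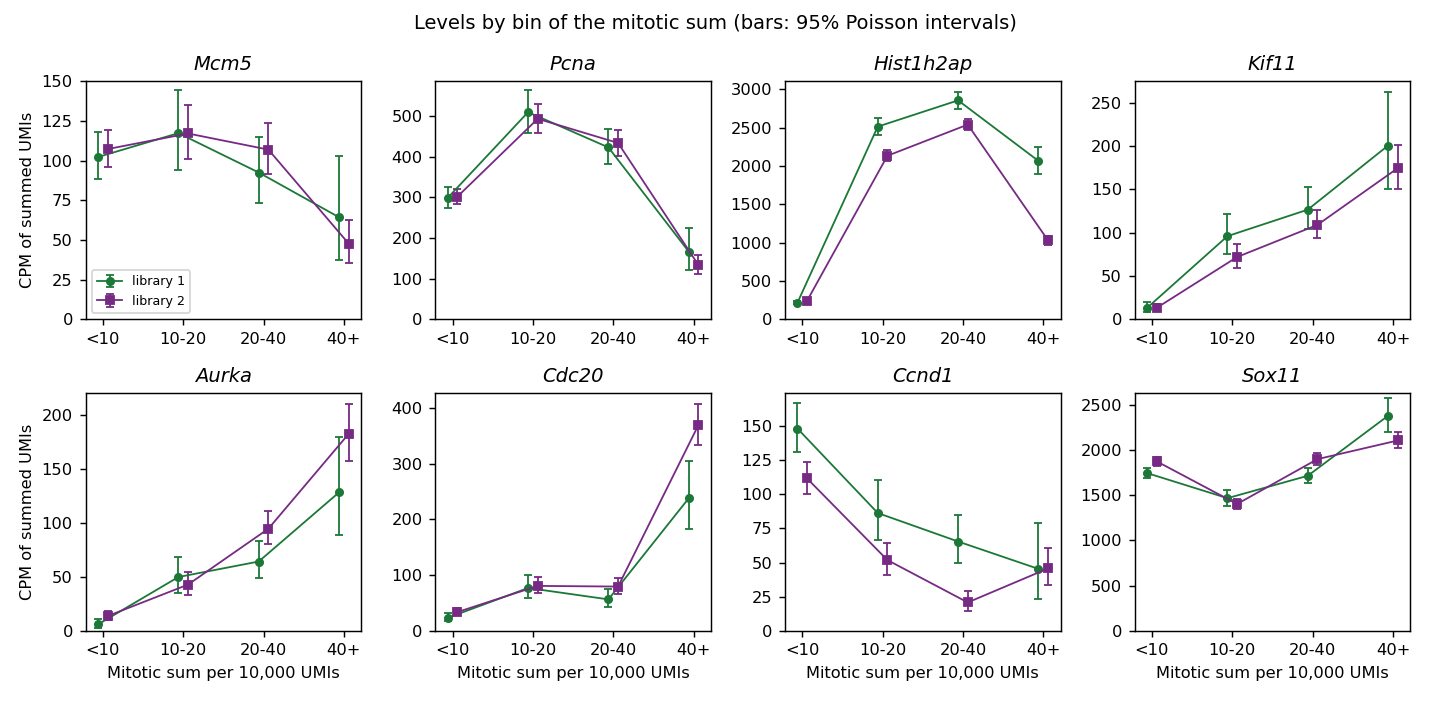
CPM of 8 genes (y axes, with 95% Poisson intervals) by bin of the mitotic sum per 10000 UMIs (x axes), circles library 1 and squares library 2, where the bin under 10 is the cleaned comparison cells. Pcna is lowest in the highest bin at 166 and 133 CPM, while Cdc20 is highest there at 238 and 370 CPM.

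Commitment genes were also higher at the upper end of the mitotic sum. Of 18 measured early neuronal commitment genes 15 were higher in the highest than the lowest bin in both libraries. Of all 3222 genes 947 were. Of the 18 commitment genes 5 were called higher (0.67 and 0.46), beside 3.72% of all genes. Cells over the neuroblast threshold had been left out, but the neuroblast sum was not equal across the bins. Its median was 0.798 and 0.855 in the lowest bin, 0.831 and 1.63 in the middle and 3.23 and 1.53 in the highest. The part of this difference in the commitment genes was not tested. Sox11 was at 1466 and 1402 CPM, then 1714 and 1898, then 2378 and 2104 CPM. Nrxn3, a presynaptic adhesion gene, was at 47.2 and 101 CPM in the lowest bin and 204 and 203 CPM in the highest. Dlx5 differed more between the libraries there, at 28.3 and 32.6 CPM in the lowest bin and 178 and 64.8 CPM in the highest. Egfr was at 138 and 106 CPM in the lowest bin and 75.6 and 76.2 CPM in the highest.

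Set against dividing cells past the neuroblast threshold, mitotic progenitors differed in progenitor and neuronal genes, while mitotic genes were mostly somewhat lower. This comparison uses the same mitotic progenitors as the one above, and the gate fixed the direction of the neuroblast genes, so again no test was made. Of 5810 measured genes 524 (9.02%) were called higher in mitotic progenitors and 350 (6.02%) lower, with medians of 0.08 and 0.05. None of 13 mitotic kinases was called in either direction (-0.34 and -0.07), 2 of 12 mitotic kinesins were called lower (-0.55 and -0.33), and of centromere and kinetochore genes 6 of 22 were called lower and 1 higher (-0.32 and -0.07). Among G2 and M cyclins, CDKs and CDC25 genes 2 of 9 were called lower and 1 higher (-0.32 and -0.06). Lower in both libraries at any size were 10 of 12 kinesins, 13 of 15 passenger and cytokinesis genes and 10 of 13 checkpoint genes, against 1829 of all 5810. The dividing neuroblast-gated cells were shallower, with medians of 7545.5 and 7648 UMIs.

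The gene with the highest ratio was Helt, a HEY-like repressor of the basic helix-loop-helix family (ENSMUSG00000047171), at 145 and 92.5 CPM against 8.42 and 6.40, or 17.2-fold (6.64 to 63.6) and 14.5-fold (6.14 to 44.8). Hes1, a Notch effector, was at 136 and 109 CPM against 25.3 and 11.5, or 5.38-fold (3.03 to 10.5) and 9.49-fold (4.95 to 20.9). Lmo1, a LIM-only cofactor, was at 100 and 62.9 CPM against 21.0 and 8.96, and Sox8 at 83 and 49.7 CPM against 18.9 and 8.96. Egr1 was at 1454 and 1122 CPM against 316 and 215. Tcf7l2, a Wnt effector, was at 40.2 and 55.1 CPM against 4.21 CPM (2 UMIs) and 8.96 CPM, and Arap2 had 0 UMIs in the gated cells of library 1, where it was at least 4.77-fold higher in mitotic progenitors against a floor of 3 UMIs. Smco4, Serpinh1 and Gm27239 completed the 10 highest.

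The EGF receptor was on the same side. Egfr was at 35.8 and 34.5 CPM in the dividing neuroblast-gated cells, so that mitotic progenitors had 3.91-fold (2.40 to 6.82) and 2.59-fold (1.75 to 3.98) as much. A UMI of Egfr was seen in 66.5% and 52.3% of mitotic progenitors, 21.9% and 23.3% of the gated cells and 17.9% and 20.0% of oligodendrocyte-marker cells. The share in the gated cells was near that of the oligodendrocyte-marker cells. These were shallower, with medians of 4237.5 and 5081 UMIs against 7545.5 and 7648, and numbered only 15 in library 2. Their shares therefore set no background level for Egfr. Thinned, Egfr was seen in 24.4% and 16.2% of mitotic progenitors against 9.52% and 6.00%. In the activated and transit amplifying list 11 of 22 genes were called higher and 4 lower (0.82 and 0.88). Of all genes 9.02% were called higher and 6.02% lower.

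Of 13 measured Notch genes 8 were called higher than in the gated cells and none lower (1.02 and 0.74). Beside this and the next counts, 9.02% of all genes were called higher. Hes5 was at 3533 and 3429 CPM against 1536 and 1542, and Lfng, which tunes the receptor, at 111 and 67.6 against 23.2 and 20.5. All 3 measured Hedgehog genes were called higher (1.11 and 1.08), among them the co-receptor Gas1 at 172 and 165 CPM against 58.9 and 56.3. Of G1 cyclins and CDKs 4 of 7 were called higher (2.04 and 0.67), with Cdk6 at 397 and 306 CPM against 96.8 and 128. Ccnd1, at 70.8 and 38.4 CPM, stood against 6.31 CPM (3 UMIs) and 8.96 CPM, ratios of 11.2 (3.76 to 55.1) and 4.28 (2.03 to 10.8). Of immediate early genes 9 of 14 were called higher (1.46 and 1.46), the opposite of the comparison above.

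Replication genes leaned to the mitotic progenitors too. Called higher were 8 of 29 fork genes (0.61 and 0.47) and 6 of 18 licensing genes (0.36 and 0.66). In nucleotide synthesis 8 of 21 were (0.69 and 0.61), beside 9.02% of all genes. The helicase subunit Mcm2 was at 87.7 and 79.8 CPM against 31.6 and 16.6. The summed replication genes per cell had medians of 70.6 and 74.6 per 10000 against 52.5 and 53.3. The part of the higher mitotic sum of the gated cells in these values was not tested.

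**Figure D4:**
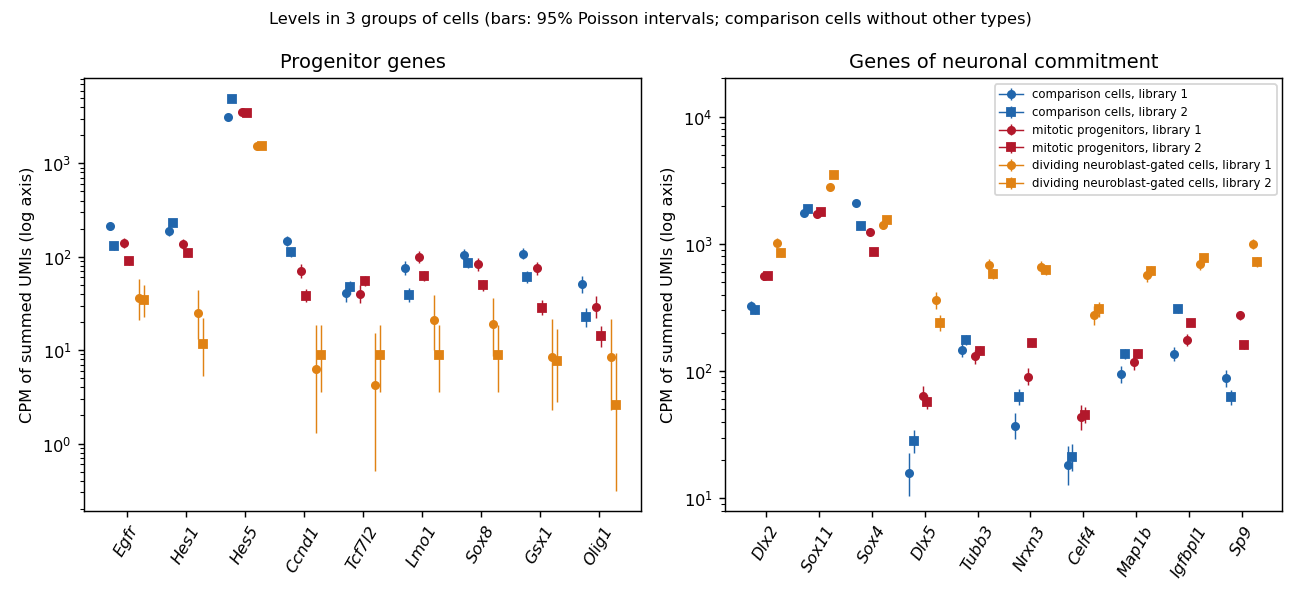
CPM on log axes, with 95% Poisson intervals, of 9 progenitor genes (left) and 10 genes of neuronal commitment (right) in cleaned comparison cells, mitotic progenitors and dividing neuroblast-gated cells, circles library 1 and squares library 2. Hes1 stands at 136 and 109 CPM in mitotic progenitors and 25.3 and 11.5 CPM in the neuroblast-gated cells, and Tubb3 at 131 and 145 against 678 and 578 CPM.

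Of 19 early neuronal commitment genes outside the gate 16 were called lower in the mitotic progenitors and none higher (-1.60 and -1.48). Of all genes 6.02% were called lower. The direction of the commitment genes follows in part from the gate, since such genes go with Dcx. Tiam2, a Rac exchange factor, led at 16.4 and 10.6 CPM against 158 and 93.4, which made the gated cells 9.63- and 8.82-fold higher. Celf4, a neuronal RNA-binding protein, was at 43.3 and 45.2 CPM against 276 and 306, and Tubb3 at 131 and 145 CPM against 678 and 578. Map1b, a microtubule protein of growing axons, was at 117 and 137 CPM against 570 and 610. Mpped2, Nrep, Cd1d1, Bcl11b, Dlx5 and Gap43 were the others of the 10 lowest.

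The steps between the 3 groups differed from gene to gene. Dlx5 ran from 15.7 and 28.3 CPM in cleaned comparison cells over 64.0 and 57.0 in mitotic progenitors to 360 and 241 CPM in the gated cells. Dlx2 ran from 326 and 301 over 561 and 561 to 1014 and 852 CPM. Sox4 did not follow, at 2101 and 1373, then 1252 and 860, then 1404 and 1534 CPM. Sox2, the stem cell factor, was at 363 and 314 CPM in mitotic progenitors and 442 and 375 CPM in the gated cells, a ratio of 0.822 (0.703 to 0.964) and 0.838 (0.738 to 0.954).

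Between the libraries the mitotic progenitors had division lists with medians near 0 and differed in a small share of genes. Of 7505 genes with at least 50 UMIs in 1 of the libraries, 203 (2.7%) were at least 1.5-fold higher in library 1 and 274 (3.65%) in library 2, with a median log2 ratio, library 1 over library 2, of 0.02. List medians were -0.03 for mitotic kinases, -0.11 for kinesins, -0.09 for passenger and cytokinesis genes and -0.10 for centromere and kinetochore. Dlx2 was at 561 and 561 CPM. A few late mitotic genes stood higher in library 2, chosen here after their values were seen: Cdc20 at 89.9 and 152 CPM, Cenpa at 295 and 448 CPM and Ccnb2 at 55.5 and 97.2 CPM. The highest bin of the mitotic sum held 26 of 179 and 92 of 409 cells.

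Oligodendrocyte genes led library 1, and not in mitotic progenitors alone. In mitotic progenitors Cldn11 was at 34.4 and 3.06 CPM, a log2 ratio of 3.49, and the same ratio was 3.18 in cleaned comparison cells and 2.59 in dividing neuroblast-gated cells. Among the comparison cells, 106 of library 1 and 15 of library 2 had oligodendrocyte markers. Such cells in other groups are not in these counts. The part of free RNA from such cells in these values was not tested. Outside these genes the X-linked ubiquitin ligase gene Mid1 stood highest, at 285 and 59.1 CPM, or 4.82-fold. Its log2 ratio was 2.27 in mitotic progenitors, 2.41 in cleaned comparison cells and 1.70 in gated cells. A UMI of Mid1 was seen in 88.8% and 40.8% of mitotic progenitors, and in 31.1% and 40% of oligodendrocyte-marker cells.

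Of 14 measured regional transcription factors of progenitors 3 were at least 1.5-fold higher in library 1 and 2 in library 2 (median 0.13). Of all genes 2.7% and 3.65% were. Pax6, a factor of dorsal progenitors (ENSMUSG00000027168, chr2:105668900-105697364), was at 74.0 and 247 CPM and was seen in 41.3% (34.0 to 48.9%) of the cells of library 1 and 74.6% (70.1 to 78.7%) of those of library 2. The thinned shares were 9.09% and 32.9%, and oligodendrocyte-marker cells had it in 3.77% and 20.0%. Its log2 ratio was -1.74 in mitotic progenitors, -1.79 in cleaned comparison cells and -1.22 in gated cells, so the difference was not particular to dividing progenitors. Dmrta2, another dorsal factor, was at 3.70 and 24.0 CPM, 6.49-fold higher in library 2. Also among the 10 highest of library 2 were Sfrp1, a secreted Wnt modulator, at 13.7 and 62.4 CPM, Prrx1 at 7.40 and 35.3 CPM, Shisa2 at 5.29 and 27.8 CPM and Notch2 at 6.34 and 25.2 CPM. Gm28050 had 0 UMIs in library 1 and 57 (13.4 CPM) in library 2, at least 8.46-fold higher against a floor of 3 UMIs.

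Higher in library 1 were Gsx1 and Olig2. Gsx1, a factor of the ganglionic eminence lineage that is named here after its values were seen, was at 75.1 and 28.5 CPM and seen in 37.4% and 17.6% of cells. Its log2 ratio between the libraries was 1.40 in mitotic progenitors, 0.83 in cleaned comparison cells and 0.13 in gated cells. In the gated cells its level was low, with log2 ratios of mitotic progenitors over gated cells of 3.16 and 1.89. Olig2, found in transit amplifying and oligodendrocyte lineage cells, was at 51.8 and 14.8 CPM. Its log2 ratios between the libraries in the same 3 groups were 1.80, 1.39 and 0.98. Its share of cells was 27.9% and 12.2%, under the 45.3% and 66.7% of oligodendrocyte-marker cells. Pax6 and Gsx1 were seen together in 28 of 179 and 51 of 409 mitotic progenitors, Pax6 alone in 46 and 254, and Gsx1 alone in 39 and 21.

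Of 9 measured EGF, FGF and ERK feedback genes 5 were at least 1.5-fold higher in library 1 (median 0.59), beside 2.7% of all genes. Among the 5 was Egfr at 140 and 89.5 CPM. The list stood much the same in cleaned comparison cells, with 4 of 9 (0.58), and in non-dividing cells over the astrocyte limit, with 6 of 13 (0.43). Immediate early genes, which dissociation can induce, were higher in library 1 in 16 of 17 in mitotic progenitors (0.42), against 4008 of all 7486. At least 1.5-fold higher were 6 of the 17, and 7 of 18 in cleaned comparison cells (0.53). In non-dividing cells over the astrocyte limit 2 of 19 were (0.07). The part of dissociation in these values was not tested. Cdkn1a, the p21 inhibitor, was at 161 and 56.0 CPM, 2.88-fold higher in library 1, with log2 ratios of 1.52 in mitotic progenitors, 1.49 in cleaned comparison cells and 1.64 in gated cells. Wnt genes leaned to library 2, with 3 of 12 at least 1.5-fold higher there (-0.32), beside 3.65% of all genes. In cleaned comparison cells 2 of 11 were (-0.31). In non-dividing cells over the astrocyte limit the Wnt median was 0.13. What age, animal pool or library preparation contributed to these differences cannot be told apart with 1 library per age.

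**Figure D5:**
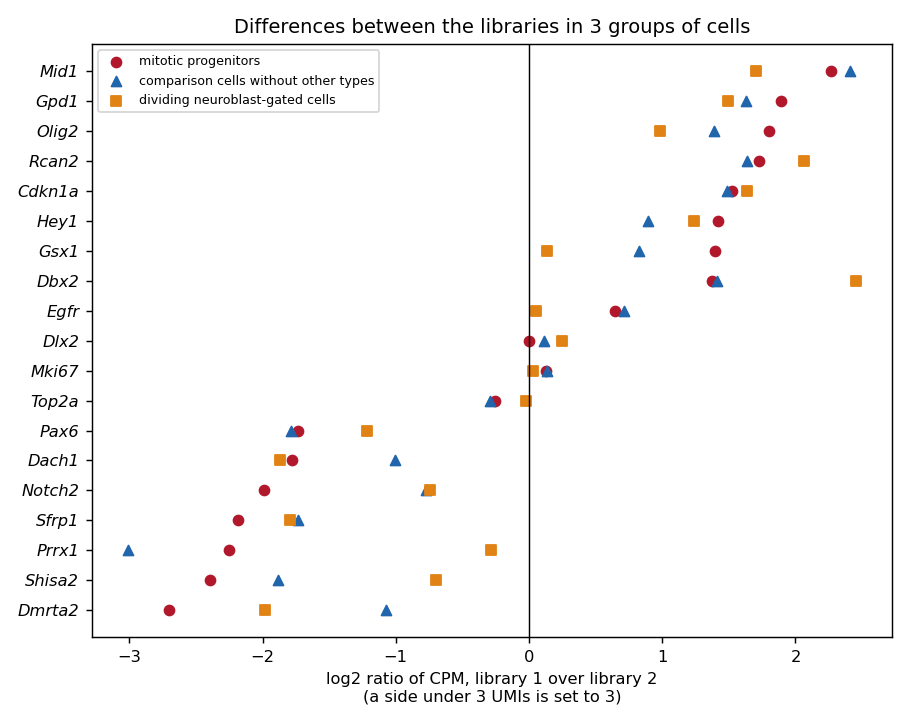
Log2 ratio of CPM, library 1 over library 2 (x axis, a side under 3 UMIs set to 3), for 19 genes in mitotic progenitors (circles), cleaned comparison cells (triangles) and dividing neuroblast-gated cells (squares). Mid1 lies right of 0 in all 3 groups, at 2.27, 2.41 and 1.70, and Pax6 left of it, at -1.74, -1.79 and -1.22. Top2a and Mki67 lie near 0, but both are genes of the mitotic sum, whose limits were the same in both libraries.

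The contrast with the comparison cells rarely differed in direction between the libraries. Opposite calls, at least 1.5-fold higher in one library and lower in the other, numbered 9 genes against all comparison cells and 1 against the cleaned cells. Anln, a cytokinesis scaffold also made by oligodendrocytes, was among the 9 at -1.49 and 1.54, and stood at 1.61 and 2.59 against the cleaned cells. The 1 gene left was the tubulin Tubb6, at -0.81 and 0.86.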

How the data were processed

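GLAST-sorted subventricular cells of 2 pooled mouse samples were profiled by 10x Chromium 3′ RNA-seq. The authors deposited 1 matrix of raw UMI counts per gene and barcode, not normalized, made with Cell Ranger 2.0.0 per the submitters' processing notes, which also list GRCm38.p3 and mm10 without a role. Cell calling and library merging: not given in the sources used here. The barcode ending gave the library, and 0 columns of single samples stayed unmapped.

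Counts were summed over the cells of a group in each library and divided by the group's total (CPM), with exact Poisson intervals, exact conditional intervals of ratios and Clopper-Pearson intervals of shares, all at 95%. A count under 3 was set to 3 before a log2 ratio was taken. Depth ranged from 1457 to 21416 and from 1677 to 24313 UMIs per mitotic progenitor. With 1 library per age there are no replicates and no p-values. The computation of ratios was checked on simulated data. Doublets were marked by Scrublet (scanpy 1.11.5) and kept, as the rule does not remove them. Python 3.11.15, numpy 2.4.6, pandas 2.3.3, scipy 1.17.1 and matplotlib 3.10.9 were used. Gene coordinates and promoter windows came from the GRCm38 annotation and RefSeq.

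The mitotic progenitors and the 53 gene lists (1095 entries, 8 of them names not in the gene table) were chosen with earlier results of these data known. Genes were named by rule: the rule's own genes, the 12 highest and 12 lowest ratios against comparison cells, the 10 highest and lowest against dividing neuroblast-gated cells and between libraries, up to 4 genes per list with exceptions to its direction, and fixed regulators. Some genes that this rule names are not reported here. Alternatives were other limits of each gate, scaling by median ratio, equal weight per cell, thinning to 2000 UMIs, other minimum UMIs, and leaving out doublets or cells with markers of other types.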

Additional observations from a re-analysis of the deposited data

How the results depend on the processing

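The share of mitotic progenitors follows its limits. In library 1 it was 12.8% with a mitotic threshold of 5, 5.82% with 20, 6.79% with an astrocyte sum under 7.5 and 11.4% without cells with markers of other types. In library 2 it was 24.4% with 5, 12% with 20, 16.6% with a neuroblast sum under 5 and 16.9% with an astrocyte sum under 7.5. Against the comparison cells, thinning to 2000 UMIs left 198 genes higher and 140 lower, of 3231 measured. Genes lower numbered 219 with an astrocyte sum under 7.5, 219 without cells with markers of other types, 802 with a minimum of 20 UMIs and 1338 with 1 UMI. Between the libraries, genes higher in library 1 numbered 70 thinned, 514 with 20 UMIs and 4688 with 1 UMI, and genes higher in library 2 numbered 115, 663 and 978. At 1 UMI the counts rest on genes with few UMIs, and their bounds depend on the depth of each library. Of 1112 list medians under the alternatives 1094 moved by less than the log2 of 1.5, 18 moved by more, and none of 1.5-fold or more changed sign. No paired analysis was possible because there was 1 library per age and the results come from no test.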

Other observations

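Cytoskeletal genes set the mitotic progenitors apart from both other groups in different ways. Tuba1b, an alpha tubulin, was at 2262 and 2257 CPM in mitotic progenitors, 955 and 1100 CPM in the cleaned comparison cells and 2029 and 2137 CPM in the dividing neuroblast-gated cells. It was close in both dividing groups. Tubb2b, a beta tubulin of young neurons, was at 333 and 353 CPM in mitotic progenitors against 1309 and 1203 CPM in the gated cells. Of 12 measured tubulins 9 were called lower than in the gated cells, with median log2 ratios of -0.99 and -0.88. Of all genes 6.02% were called lower.

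Among long noncoding RNAs Miat was at 93.6 and 110 CPM in mitotic progenitors, 245 and 233 CPM in the cleaned comparison cells and 35.8 and 44.8 CPM in the gated cells, so that it lay between both. The mitochondrial one-carbon enzyme Mthfd2 was at 170 and 205 CPM against 61.2 and 78.7 in the cleaned comparison cells. B2m, the light chain of MHC class I, was at 59.2 and 32.0 CPM.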
